A study of Drosophila melanogaster with 6 samples.

Results

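The genes described here are 9 Drosophila genes whose mutants show bang-sensitive or related seizures and that encode no ion channel: eas, tko, sda, jus, sesB, kdn, pk, mle and wal. They were chosen by name, and each was read from the array row that the platform's annotation assigns to that symbol alone, the row of highest mean where there are several. That gave 6 measured genes (eas, tko, jus, sesB, mle and wal), each with 1 row, of 13402 genes named on the array. The annotation used here names no row for kdn or pk. It names none for sda either, and the RefSeq gene table (Release 6 plus ISO1 MT) has sda only as a synonym of 3 genes, among them jus and CG46339. Since jus is itself 1 of the 9, the name sda may stand for a gene already measured as jus. Which gene it stands for was not resolved here.

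The study measured RNA of fly heads on 6 GeneChip Drosophila Gene 1.0 ST arrays, 3 of a pool of gliopathic seizure lines and 3 of a control. For the pool, equal amounts of RNA from 7 lines were mixed, all driven by repo-GAL4: 5 silencing lines (nrv2-RNAi, comt-RNAi, ATPalpha-RNAi, SesB-RNAi and COX7A-RNAi) and 2 overexpression lines (UAS-htt.12Q.FL and UAS-Dube3a). The control carried an empty TRiP RNAi vector and the same driver. repo-GAL4 drives expression in nearly all glia, and each knockdown was present in 1 line of the 7 mixed. Flies were about 3 to 5 days old and raised at 25 °C, and 15 to 25 heads were taken per genotype; the labels do not state their sex. The labels do not state whether replicate arrays stem from separate RNA preparations, so every p-value refers to the spread between arrays alone, and this may be technical spread.

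The labels call the tissue brain, and the neuronal marker elav read 9.55 to 9.70 on the pool arrays against 9.42 to 9.55 on the control arrays (log2 intensity). The glial marker repo read 7.77 to 7.88 in the pool against 7.95 to 8.03 in the control. The protocol took whole heads, and markers of tissues outside the brain read brightly too: the photoreceptor arrestin gene Arr2 read 13.15 to 13.19 in the pool and 13.10 to 13.14 in the control. Array medians lay between 5.59 and 5.63 in the pool and between 5.53 and 5.61 in the control. In limma 473 of the 16322 rows (2.9%) were called at an adjusted p of 0.05, with 270 rises and 203 falls in the pool. After centring the arrays on their medians there were 219 rises and 249 falls.

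Bang-sensitive flies are paralysed and seize after a mechanical shock. The 9 genes, chosen for this behaviour or for related seizures and called bang-sensitive here for short, fall into a few kinds. Several serve mitochondrial energy supply: sesB encodes the adenine nucleotide translocase that exchanges ADP for ATP, tko a protein of the small mitochondrial ribosomal subunit, kdn citrate synthase, and wal the alpha subunit of the electron transfer flavoprotein. Others act elsewhere: eas encodes ethanolamine kinase of phospholipid synthesis, jus a transmembrane protein, pk a core planar cell polarity protein, and mle an RNA helicase of the dosage compensation complex, and the name slamdance (sda) was first given to an aminopeptidase gene.

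None of the 6 measured genes passed the test in limma: 0 of 6 rose and 0 of 6 fell, against 1.65% and 1.24% of all rows. Differences ran from -0.17 for tko to 0.07 for mle on the log2 scale, 3 above and 3 below 0, with a median of 0.02 against -0.00 over all rows. The pool arrays lay wholly to one side of the control arrays for 2 of the 6, tko and wal, and both of these were lower in the pool. Over all rows the groups did not overlap for 21.5%, and for 10% they did so with the pool lower. An unadjusted p under 0.05 was reached by 1 of the 6, tko, against 14.8% of all rows.

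**Figure D1:**
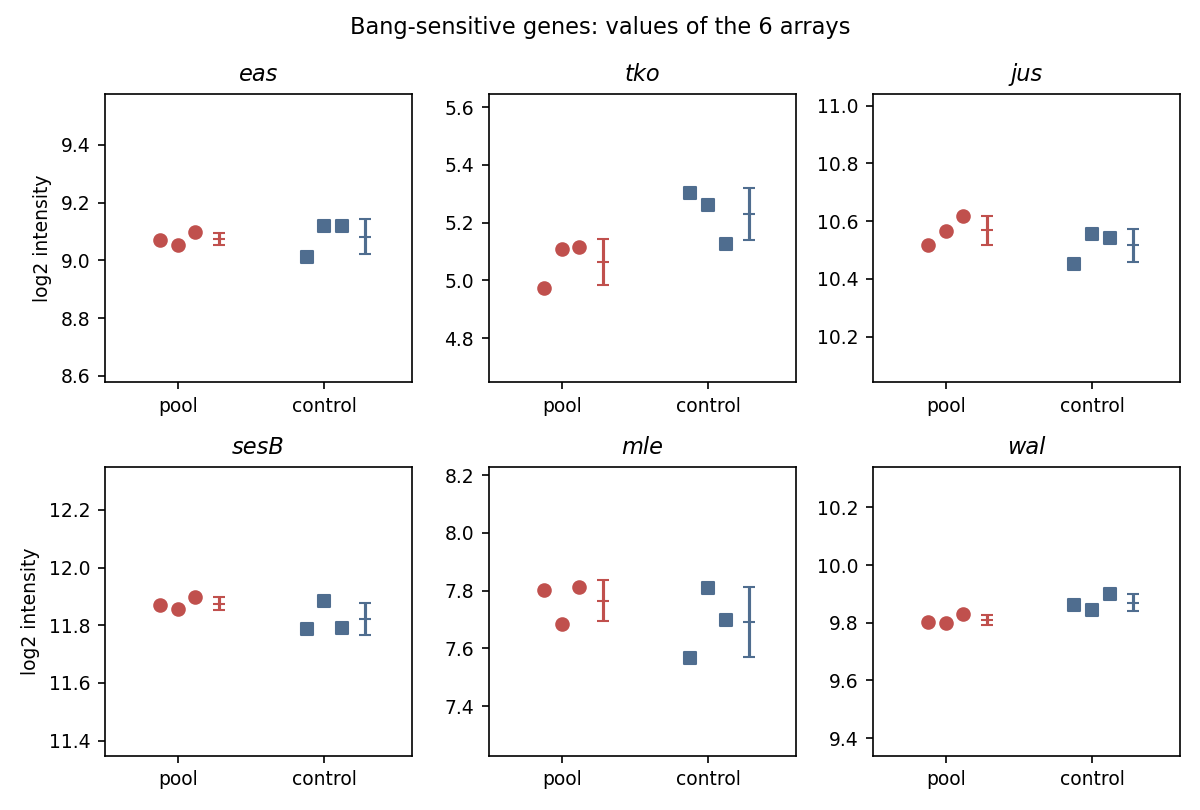
Log2 intensity (y axis) of the 6 measured genes on each array, pool (circles) left of control (squares); the bar beside each group is its mean ± SD over 3 arrays. Every panel spans 1 log2 unit, and the groups overlap in all panels but those of tko and wal.

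sesB is both a bang-sensitive gene and the target of RNA interference in 1 of the pooled lines. Its row read 11.87, 11.86 and 11.90 on the pool arrays, against 11.79, 11.89 and 11.79 on the control arrays. The groups overlapped, since control replicate 2 read higher than 2 of the pool arrays. The means were 11.88 ± 0.02 in the pool and 11.82 ± 0.06 in the control (SD, n = 3 each), a log2 difference of 0.05 with a 95% interval of -0.07 to 0.18 (limma adjusted p = 0.713). If 1 of the 7 lines had no sesB RNA and the other lines matched the control, the pool would stand 14.3% lower, a log2 difference of -0.22. The interval lies above that value, with its lower bound at a fall of 4.62%. A knockdown restricted to glia removes only the glial share of the transcript, and these arrays do not measure that share. The annotated span of sesB overlaps that of its neighbour and paralog Ant2, so signal of either gene in the other's row cannot be told apart here. Ant2 read 4.25, 4.35 and 4.18 in the pool and 4.30, 4.41 and 4.31 in the control (difference -0.08, adjusted p = 0.632).

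Of the other genes named for the pooled lines, Ube3a (Dube3a), the ubiquitin ligase gene that 1 line overexpresses, was the 1 that passed. It read 9.23, 9.30 and 9.25 in the pool and 8.20, 8.33 and 8.33 in the control, a log2 difference of 0.97 (adjusted p = 0.00015). COX7A, which encodes a subunit of cytochrome oxidase, stood at 0.05 (adjusted p = 0.786), nrv2, which encodes a beta subunit of the sodium pump, at -0.07 (0.592) and htt, the fly huntingtin gene, at -0.01 (0.959). Whether the htt row reads the transgene was not tested. The annotation used here names no row for comt or Atpalpha.

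Around sesB, 22 further mitochondrial carrier genes were measured. Of these 1 fell and 0 rose, against 1.24% and 1.65% of all rows, and 21 did not pass. That 1 was colt, which encodes the carrier that brings acylcarnitines into mitochondria. colt read 9.05, 9.12 and 9.11 in the pool and 9.32, 9.47 and 9.36 in the control, with every pool array below every control array. Its difference was -0.29 (adjusted p = 0.0451), a call lost when any 1 array was left out (adjusted p 0.0783 to 0.156). The annotated span of colt overlaps that of Taf10. Over the 22 carriers the median was -0.00. The groups did not overlap for 7, against 21.5% of all rows, with the pool lower in 4 and higher in 3. An unadjusted p under 0.05 was reached by 5, against 14.8% of all rows. These 5, colt included, are named here after their values were seen. Rim2 at -0.14 (adjusted p = 0.256), Mtch at -0.15 (0.327) and sea at -0.15 (0.337) were lower in the pool, and the phosphate carrier gene Mpcp1 at 0.18 (0.121) was higher.

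The ATP synthase, whose product sesB exports, had 14 measured subunit and inhibitor genes. Of these 0 passed in limma in either direction and 1 had an unadjusted p under 0.05, against 14.8% of all rows. The 14 genes had a median of 0.04, with 11 higher and 3 lower in the pool. The groups did not overlap for 8 of the 14 (21.5% of all rows). The 2 of smallest p were sun, the epsilon subunit gene, at 0.13 (adjusted p = 0.302), and blw, the alpha subunit gene, at 0.10 (adjusted p = 0.407). blw read 12.08, 12.05 and 12.04 in the pool and 11.96, 11.95 and 11.97 in the control. Of 17 measured muscle markers 6 rose, 0 fell and 11 did not pass, 4 of the 17 being lower in the pool, and their summed intensity, on the log2 scale, was 14.28 to 14.31 in the pool against 14.05 to 14.10 in the control. The dimmest of them, the flight muscle troponin C gene TpnC4, averaged 6.43 over the 6 arrays. The part of muscle in the mitochondrial genes' values was not tested. In whole heads, more cells of a type and more RNA per cell cannot be told apart.

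tko had the largest difference of the 6 genes. It read 4.97, 5.11 and 5.11 in the pool, against 5.30, 5.26 and 5.13 in the control. Every pool array was below every control array, but the highest pool value and the lowest control value nearly met. The means were 5.06 ± 0.08 in the pool and 5.23 ± 0.09 in the control (SD, n = 3 each), a log2 difference of -0.17 with a 95% interval of -0.32 to -0.01. The unadjusted p of limma was 0.0429 and the adjusted p 0.317. These values lie below the median of every array, so tko was read from a dim row.

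Of 26 other measured genes of the small mitochondrial ribosomal subunit 0 rose, 0 fell and 26 did not pass in limma. An unadjusted p under 0.05 was reached by 2, against 14.8% of all rows. The median of the 26 was -0.04, with 17 lower and 9 higher in the pool. The groups did not overlap for 3 of the 26, against 21.5% of all rows. The 2 of smallest p went opposite ways, mRpS34 at 0.25 (adjusted p = 0.0978) and mRpS9 at -0.13 (adjusted p = 0.328). mRpS34 read 7.07, 6.93 and 6.95 in the pool and 6.78, 6.65 and 6.77 in the control. The annotated spans of both genes overlap those of neighbours.

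wal read 9.80, 9.80 and 9.83 in the pool and 9.86, 9.84 and 9.90 in the control. The pool arrays were all lower, with a gap to the control arrays narrower than the spread within either group. Its means were 9.81 ± 0.02 in the pool and 9.87 ± 0.03 in the control (SD, n = 3 each), a difference of -0.06 with a 95% interval of -0.17 to 0.05 (adjusted p = 0.651). The electron transfer flavoprotein takes electrons from acyl-CoA dehydrogenases, and 11 further genes of this step and of fatty acid oxidation were measured. Of these 0 passed in limma and 2 had an unadjusted p under 0.05, against 14.8% of all rows. In the pool 9 were lower and 2 higher, and the median was -0.04. The groups did not overlap for 4, all lower in the pool, against 10% of all rows. The 2 of smallest p were scu, a mitochondrial hydroxyacyl-CoA dehydrogenase gene, at -0.14 (adjusted p = 0.217), and whd, the carnitine palmitoyltransferase gene, at -0.12 (adjusted p = 0.310). scu read 8.67, 8.68 and 8.66 in the pool and 8.82, 8.78 and 8.82 in the control. whd works just before colt in the import of fatty acids into mitochondria; its span overlaps those of neighbouring genes.

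kdn itself was not analysed here, and its pathway was read from 26 other genes of the citrate cycle and of pyruvate entry. Of these 0 passed in limma and 5 had an unadjusted p under 0.05, against 14.8% of all rows. In the pool 13 were higher and 13 lower, and the median was 0.00. The groups did not overlap for 12 of the 26, 9 with the pool higher and 3 with it lower (11.4% and 10% of all rows). Fum2, a fumarase gene, stood at -0.30 (adjusted p = 0.0783) from a dim row that read 4.29, 4.36 and 4.16 in the pool and 4.57, 4.49 and 4.64 in the control, and its span overlaps that of Fum1. Idh3a, the catalytic subunit gene of isocitrate dehydrogenase, stood at 0.18 (adjusted p = 0.161) and read 11.59, 11.62 and 11.60 in the pool and 11.36, 11.47 and 11.46 in the control.

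**Figure D2:**
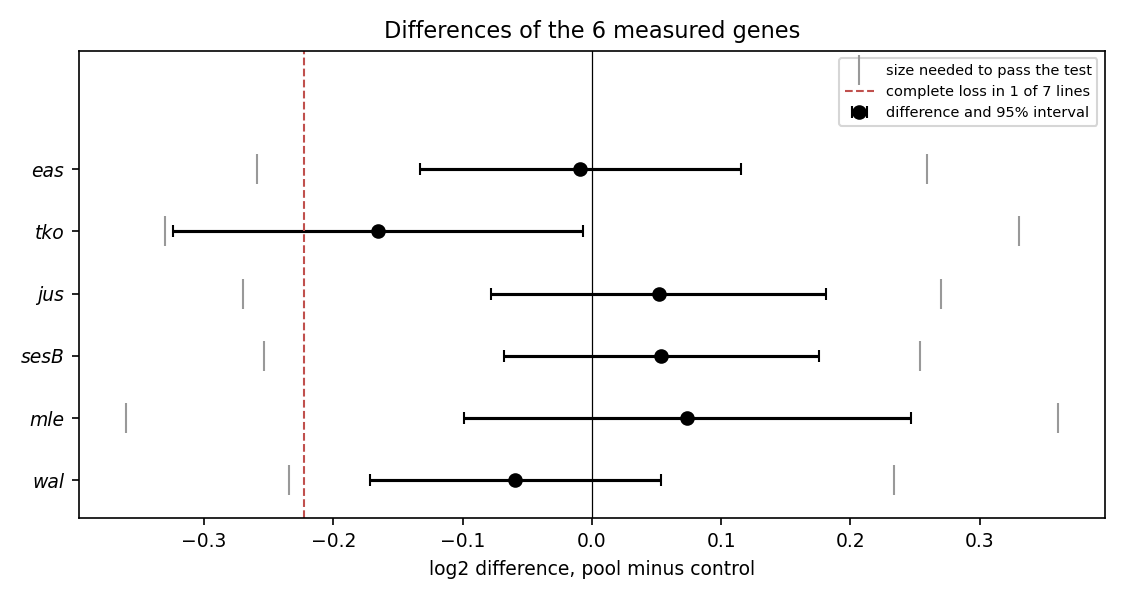
Log2 difference, pool minus control (x axis), of the 6 measured genes (y axis) with 95% intervals; grey ticks mark the size each gene would have needed to pass the test at its own standard error, and the dashed line marks a complete loss of RNA in 1 of 7 pooled lines (-0.22). All 6 differences lie inside their ticks, and the interval of tko alone leaves out 0.

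eas had the smallest difference. It read 9.07, 9.05 and 9.10 in the pool and 9.01, 9.12 and 9.12 in the control, and the pool values lay within the range of the control values. The means were 9.07 ± 0.02 in the pool and 9.08 ± 0.06 in the control (SD, n = 3 each), a difference of -0.01 with a 95% interval of -0.13 to 0.12 (adjusted p = 0.966). eas makes phosphoethanolamine, which Pect then activates. Pect, named here for its place after eas once values had been seen, stood at 0.06 (adjusted p = 0.689).

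Of 11 other genes around phospholipid head group synthesis, SREBP and Sply counted among them, 1 fell and 0 rose. Over all rows 1.24% fell and 1.65% rose. The other 10 genes did not pass, and the median of the 11 was 0.05. The 1 that fell was Pcyt2, which encodes a CTP:phosphocholine transferase of the choline branch, the branch parallel to that of eas. Pcyt2 read 6.43, 6.61 and 6.37 in the pool, against 6.95, 7.26 and 7.30 in the control. Every pool array lay below every control array, although control replicate 1 was lower than its 2 fellow controls. The difference was -0.70 with a 95% interval of -0.94 to -0.46 (adjusted p = 0.0134). The call was lost without pool replicate 1 (-0.68, adjusted p = 0.0618), pool replicate 3 (-0.65, 0.0579) or control replicate 2 (-0.66, 0.0562). The span of Pcyt2 meets that of its neighbour and paralog Pcyt1. Pcyt1, whose value is given here after values were seen, averaged 8.27 in the pool and 8.32 in the control. Its difference of -0.05 did not pass (limma adjusted p = 0.756).

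jus read 10.52, 10.57 and 10.62 in the pool and 10.45, 10.55 and 10.54 in the control. The groups overlapped, and the means were 10.57 ± 0.05 in the pool and 10.52 ± 0.06 in the control (SD, n = 3 each). The difference was 0.05 with a 95% interval of -0.08 to 0.18 (adjusted p = 0.745). The span of jus overlaps that of CG11898. CG46339, the M1 aminopeptidase gene that also has sda among its synonyms and is named here for that reason, read 8.93, 8.93 and 8.96 in the pool and 8.93, 9.09 and 9.17 in the control. Its groups overlapped, and its difference of -0.13 did not pass (95% interval -0.29 to 0.03, adjusted p = 0.446).

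Among all 18 measured M1 aminopeptidase genes, CG46339 included, 1 fell and 0 rose, against 1.24% and 1.65% of all rows. The other 17 did not pass, and the median of the 18 was -0.00. CG40470 was the 1 that fell. It read 6.58, 6.45 and 6.65 in the pool and 7.06, 7.34 and 7.14 in the control, so that the groups lay well apart. The difference was -0.62 with a 95% interval of -0.82 to -0.42 (adjusted p = 0.00942), and the call held with any 1 array left out (adjusted p 0.0213 to 0.0416). Its annotated span holds 2 long non-coding RNA genes.

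mle had the widest spread over the control arrays of the 6 genes. It read 7.80, 7.68 and 7.81 in the pool, against 7.57, 7.81 and 7.70 in the control. The groups overlapped over most of their range, and the means were 7.77 ± 0.07 in the pool and 7.69 ± 0.12 in the control (SD, n = 3 each). The difference was 0.07 with a 95% interval of -0.10 to 0.25 (adjusted p = 0.725). In males the mle helicase remodels the non-coding roX RNAs, which then join the MSL proteins on the X chromosome. A gain-of-function allele of mle also lowers the output of the sodium channel gene para, which read 9.45 ± 0.04 in the pool and 9.45 ± 0.05 in the control (SD, n = 3 each; difference -0.00, adjusted p = 0.999).

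Of 11 genes around mle, para counted among them, 2 rose and 0 fell, against 1.65% and 1.24% of all rows. The other 9 did not pass, and the median of the 11 was 0.08. The groups did not overlap for 4, all higher in the pool, against 11.4% of all rows. An unadjusted p under 0.05 in limma was reached by 3, against 14.8% of all rows. Both genes that rose were roX genes. lncRNA:roX2 read 7.69, 7.80 and 7.72 in the pool and 7.30, 7.31 and 7.27 in the control, a difference of 0.44 with a 95% interval of 0.32 to 0.56 (adjusted p = 0.0051). lncRNA:roX1 read 12.23, 12.20 and 12.24 in the pool and 11.93, 11.96 and 12.00 in the control, a difference of 0.26 (adjusted p = 0.0356). In both genes every pool array was above every control array. The call of roX2 held under every alternative tried, while that of roX1 was lost after quantile normalization (adjusted p = 0.0605), with arrays centred on the median (0.108) and with any 1 array left out (0.0645 to 0.132). The span of roX1 overlaps that of ec.

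After the roX values were seen, 4 other genes of sexually unequal expression were picked by hand, and none of the 4 passed. They are not a full set of such genes. msl-2, the male-limiting protein gene of the complex, read 7.42, 7.31 and 7.22 in the pool and 7.06, 7.09 and 7.07 in the control (difference 0.24, adjusted p = 0.0998). The female yolk protein genes stood below 0: Yp1 at -0.11 (adjusted p = 0.348), Yp2 at -0.11 (0.338) and Yp3 at -0.19 (0.0934). In all 3 yolk genes every pool array was below every control array, as in 10% of all rows. After quantile normalization Yp1 stood at -0.048 and Yp2 at -0.045, while Yp3 stood at -0.196 and msl-2 at 0.232. The part of the sex ratio of the heads in these values was not tested.

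**Figure D3:**
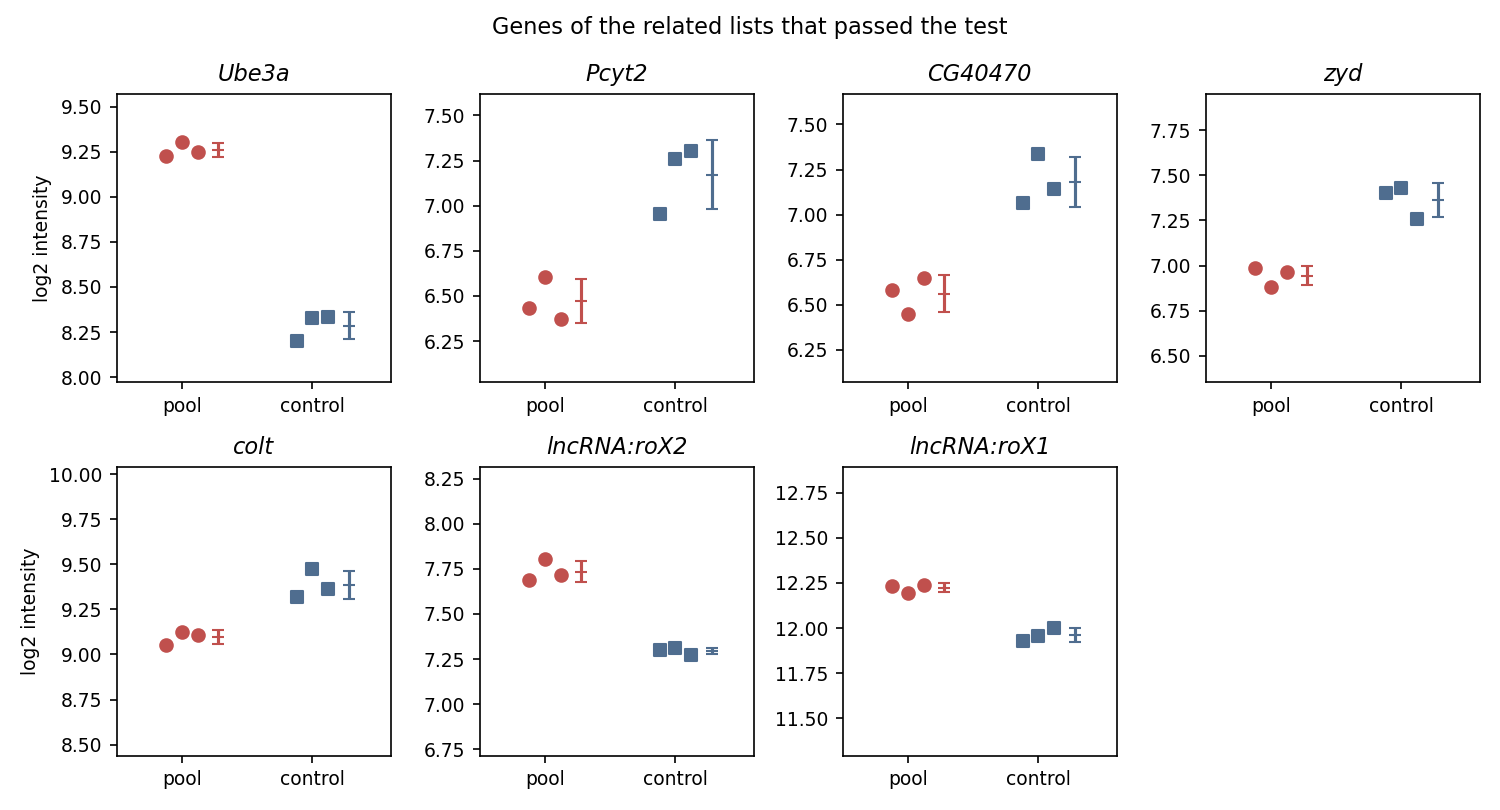
Log2 intensity (y axis) on each array of the 7 genes that passed in the lists around the bang-sensitive genes or among the pooled lines' genes, pool (circles) left of control (squares) with mean ± SD over 3 arrays. Each panel spans 1.6 log2 units, and in all 7 the groups do not overlap; Ube3a, lncRNA:roX2 and lncRNA:roX1 are higher in the pool, the other 4 lower.

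pk was not analysed here, and of 14 other planar polarity genes 0 passed in limma and 0 had an unadjusted p under 0.05, with a median of 0.03. The groups overlapped in all 14, against no overlap in 21.5% of all rows. fj, which encodes a Golgi kinase, stood at 0.19 (adjusted p = 0.392) and dgo, which encodes the core protein diego, at 0.18 (adjusted p = 0.520). esn, the paralog of pk, read 5.78, 5.58 and 6.13 in the pool and 6.05, 5.88 and 5.83 in the control. Its pool arrays spread wider than its control arrays, and the difference was -0.09 with a 95% interval of -0.40 to 0.22 (adjusted p = 0.827).

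Of 19 other genes that cause or modify fly seizures, para again among them, 1 fell and 0 rose, against 1.24% and 1.65% of all rows. The other 18 did not pass, and the median of the 19 was 0.04. The 1 that fell was zyd, the calcium exchanger gene of cortex glia, at 6.99, 6.88 and 6.96 in the pool against 7.40, 7.43 and 7.26 in the control. Its difference was -0.42 (adjusted p = 0.0149), and the call was lost with any 1 array but control replicate 3 left out (adjusted p up to 0.0673). Of 15 measured glial markers, zyd among them, 2 fell and 0 rose; the other that fell was the cortex glia gene wrapper (-0.47, adjusted p = 0.00299). Of these 15 markers 8 had an unadjusted p under 0.05 in limma, against 14.8% of all rows. The groups did not overlap for 10, with the pool lower in 7 and higher in 3 (10% and 11.4% of all rows). Of the 15, 9 were lower and 6 higher in the pool, with a median of -0.07. The 15 include nrv2, which 1 of the pooled lines silences. The sum of their unlogged intensities, on the log2 scale, was 13.69 to 13.74 in the pool against 13.71 to 13.75 in the control. Bright genes weigh most in such a sum. The part of glial cell number in the value of zyd was not tested.

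**Figure D4:**
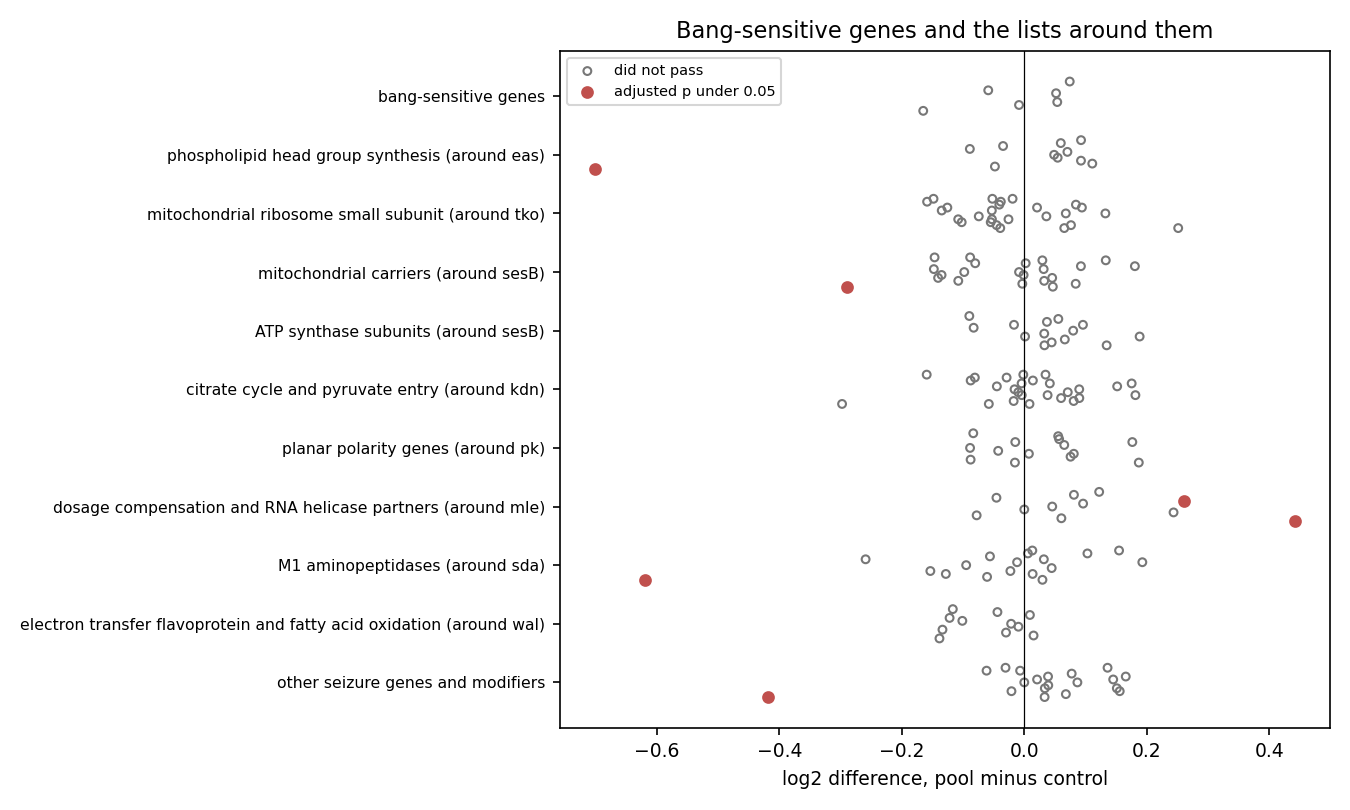
Log2 difference, pool minus control (x axis), of each measured gene in the bang-sensitive set and in the lists around it (y axis); filled points passed an adjusted p of 0.05 over all rows, open points did not. No bang-sensitive gene is filled, and 6 genes of the other lists are: Pcyt2, colt, CG40470, zyd, lncRNA:roX1 and lncRNA:roX2.

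The arrays and the fit set a limit on what could be seen in these genes. At the standard errors of the 6 genes, 0.05 to 0.07 on the log2 scale, a gene had to differ by 0.23 (wal) to 0.36 (mle) to pass the test over all rows. A smaller difference was not detectable at this precision in the reported fit. With trend and robust eBayes the standard errors of sesB and wal were 0.034 and 0.037. Yp2 passed there at -0.11 (limma adjusted p = 0.0194), while none of the 6 genes did. A loss confined to 1 of the 7 lines can reach at most -0.22. In the reported fit this is below the size needed to pass for each of the 6 genes. The 95% intervals of the 6 genes together reached from -0.32 (tko) to 0.25 (mle).

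**Figure D5:**
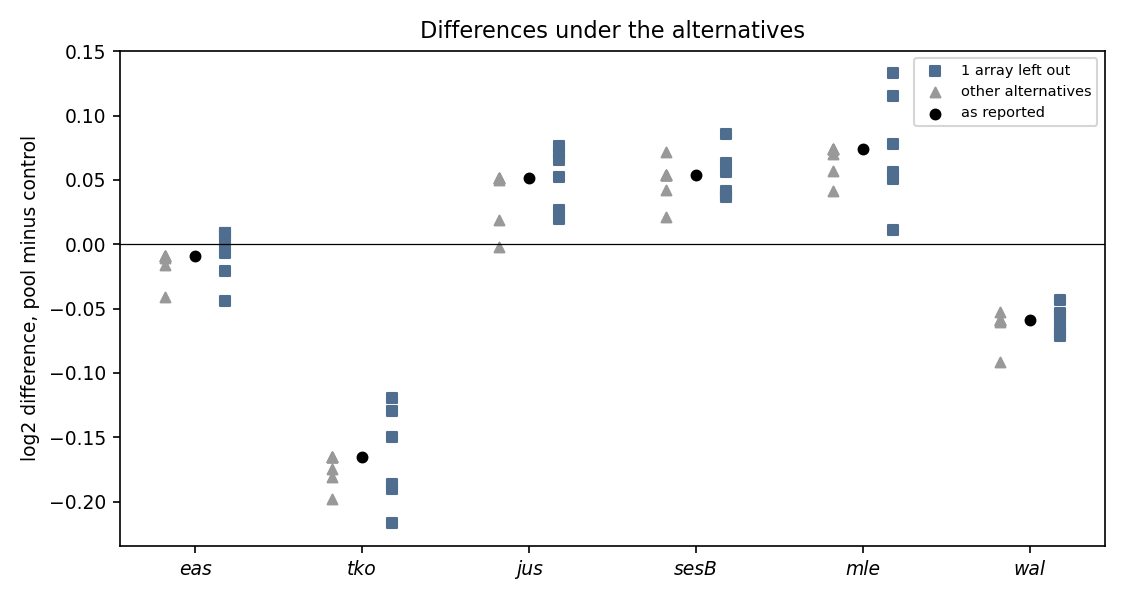
Log2 difference, pool minus control (y axis), of the 6 measured genes (x axis) as reported (circles), with 1 array left out (squares) and under the other alternatives (triangles). tko and wal lie below 0 and sesB and mle above 0 throughout, while eas and jus have points on both sides of 0.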

How the data were processed

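RNA of fly heads was measured on 6 arrays, 3 of the pool and 3 of the control; groups were taken from the sample titles. Per the submitters' processing notes the authors used Affymetrix Expression Console; the sources used here give neither a version or algorithm for it nor a genome build. The deposited values are 1 log2 intensity per row and array; the log base was inferred from their range (3.20 to 14.02). They were used as deposited, so a shift common to most genes may have been removed by the authors' normalization.

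Of 16322 rows, 13441 have 1 gene symbol in the platform's annotation, 555 several and 2326 none. Symbols were checked by gene identifier against RefSeq's table, and 0 changed. No coordinates or sequences are given, because the build is not known and no sequence table was used.

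Pool minus control was fitted over all rows with limma 3.58.1 (R 4.3.3; lmFit and eBayes, two-sided, no filter on dim rows, 3.78 prior and 4 residual degrees of freedom), with Benjamini-Hochberg adjustment and a threshold of 0.05. On simulated arrays with 200 of 16322 rows changed, the fit recovered 42% of rows changed by 0.3 log2, 84% at 0.6, 94% at 1 and 100% at 2, with 11 false calls. No array duplicated another (SD of the difference within a group 0.150 to 0.180). Plots were made in Python 3.11.15 with matplotlib 3.10.9.

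The genes and lists were chosen with earlier results of these data known. Named were the 9 genes, the pooled lines' genes, the paralogs Ant2 and esn, and in each list the called genes or, with none called, the 2 of smallest p; exceptions are stated. The alternatives were quantile normalization, median centring, leaving out the dimmest 25% of rows, a replicate block, eBayes with trend and robust settings, array weights, only rows with 1 symbol, and leaving out each array. Averaging a gene's rows was not needed, since each gene has 1 row.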

Additional observations from a re-analysis of the deposited data

How the results depend on the processing

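None of the 6 bang-sensitive genes passed under any of the 13 alternatives. Of their 78 values, 74 kept the direction of the reported one. The exceptions were jus after quantile normalization (-0.0019) and eas in 3 of the fits with 1 array left out, where it ranged from -0.044 to 0.0090. The fits with 1 array left out gave -0.22 to -0.12 for tko, 0.02 to 0.08 for jus, 0.04 to 0.09 for sesB, 0.01 to 0.13 for mle and -0.07 to -0.04 for wal. Centring the arrays on their medians, which moved the median of all rows to -0.033, gave 0.021 for sesB, 0.019 for jus, 0.041 for mle, -0.092 for wal and -0.041 for eas. Among the other named genes htt (-0.052 to 0.042) and esn (-0.24 to 0.039) changed direction with 1 array left out. The count of called rows was 473 as reported, 861 with trend and robust eBayes and 218 to 312 with 1 array left out, where fewer arrays were fitted. With the replicate number as a block 312 rows were called. The correlations of same-numbered arrays' deviations from their group means were -0.014, -0.0048 and 0.090, so the numbers were not taken to pair the arrays; under the block colt (adjusted p = 0.0832) and lncRNA:roX1 (0.105) no longer passed. With trend and robust eBayes Idh3a (0.0162), Mpcp1 (0.00493), Yp1 (0.0327), Yp2 (0.0194) and Yp3 (0.000853) passed; the cause was not tested. The number of arrays limits the precision.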

Other observations

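In all 6 measured bang-sensitive genes the SD over the pool arrays was smaller than that over the control arrays, as it was for 53.6% of all rows. For sesB the SD was 0.022 in the pool and 0.055 in the control, and for mle it was 0.072 in the pool and 0.122 in the control (log2 units, n = 3 each). These ratios rest on 3 arrays a group and were not tested.

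Markers of tissues outside the brain and of neurons were read in the same fit. Over all rows 1.65% rose and 1.24% fell. Of 16 measured cuticle and epidermis markers 7 rose and 0 fell, while 11 were higher and 5 lower in the pool. Their summed intensity on the log2 scale was 12.23 to 12.24 in the pool against 11.51 to 11.57 in the control. Of 11 hemocyte markers 0 rose and 2 fell, at a sum of 11.63 to 11.66 in the pool against 11.78 to 11.82 in the control. The 2 that fell were PPO1 and PPO2, both at -0.36. Of the 11, 7 were higher and 4 lower in the pool, with a median of 0.02, so the lower sum does not describe most of them. Of 7 photoreceptor markers 1 rose and 0 fell (15.01 to 15.05 in the pool against 14.91 to 14.92 in the control). Of 11 fat body markers 2 rose and 1 fell (15.59 to 15.62 in the pool against 15.62 to 15.64 in the control). Those that rose were Lsp2 at 1.33 and Obp99b at 0.55, and Obp99a fell, at -0.86. Of these 11 markers 4 were higher and 7 lower in the pool. Of 11 neuronal markers 0 passed in either direction (13.41 to 13.48 in the pool against 13.35 to 13.42 in the control). An unadjusted p under 0.05 in limma was reached by 1 of these 11, against 14.8% of all rows.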
